A study of Homo sapiens with 17 samples.

Results

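Cells that had come off into suspension by 96 h after re-plating were compared with those in suspension at 60 h. These are 2 of the 17 samples of the series, chosen by their titles, with 1 library for each time. The starting line was H1, an established line of human embryonic stem cells. Endothelial cells positive for a reporter of GATA2 had been made from H1 in the VC+ condition (vitamin C, going by the title of the series) and re-plated, and both libraries carry the label of haematopoietic cells. The 2 groups share the line, the reporter and the VC+ condition and differ in hours after re-plating, 60 h against 96 h. No label says how many cultures were pooled, whether the second collection held cells left from the first, or that any surface marker was used to gate the suspended cells. Beside them stand the VC+ cells that adhered at 60 h and the VC+ re-plating course at 0, 24, 36, 48 and 60 h, again with 1 library each.

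During development the first blood cells bud from the vessel wall: an endothelial cell rounds up, lets go of its neighbours and turns off junction and vessel genes while RUNX1, GATA2 and their partners turn on blood genes. In culture such cells leave the dish and float. The cells that follow can become red cells, which fill with globin and haem, megakaryocytes, which load granules with chemokines and clotting proteins and shed platelets, or granulocytes and macrophages. Red cells of the early embryo carry epsilon and zeta globin. Those of the fetus carry gamma globin and those of the adult beta globin, both beside alpha globin.

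With 1 library per time there is no replicate check and no test between the times. Levels are read counts scaled to a library total of 1000000 (CPM), and a ratio is the CPM at 96 h over that at 60 h, given as log2 with an exact 95% interval that covers counting error only. Since no molecular identifiers were counted, reads are not separate molecules and the true counting error may be larger. Brackets after a pair of levels give the log2 ratio and then the bounds of its interval. A gene was measured with at least 20 reads over both libraries. It was called higher when its ratio was at least 2 and the interval lay above 1, and lower when the ratio was at most 0.5 and the interval lay below 1. The suspended libraries held 6957056 reads at 60 h and 11058345 at 96 h, so that 3 reads stood for 0.431 and 0.271 CPM. The other 6 libraries held 6214675 to 8710906. The RNA is from bulk samples, in which more cells of a type and more RNA per cell cannot be told apart.

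The count tables miss some transcripts. Of 8286 genes with at least 10 TPM (a unit that sets reads per length and to a fixed total) in each of the 4 sorted endothelial libraries, which were read as that unit from their sums, 426 had a 0 h count level under 10% of the lowest of those 4, and 105 of the 426 had no read in any of the 8 count libraries. HLA-E, at 641 to 818 TPM in the sorted cells, was 1 of the 105. A count of 0 is therefore given as listed and not read as absence. Of the list genes used here, 20 are among the 426, and those described below are called undercounted.

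The label of blood cells was checked first. SPN, the leukocyte sialoglycoprotein CD43, stood at 264 CPM at 60 h and 495 at 96 h, against 8.13 in the adhered cells. GATA1, the erythroid and megakaryocyte transcription factor, stood at 136 and 291 against 3.45, and ITGA2B, the platelet integrin CD41, at 774 and 1896 against 29.7. PTPRC, the pan-leukocyte antigen CD45, was low at both times, with 22 reads (3.16 CPM) and 52 reads (4.7 CPM). The 28 endothelial genes of the list summed to 4033 CPM at 60 h and 1366 at 96 h, against 22379.7 in the adhered cells. The 60 h suspension thus held more RNA of this list than the later one. The sum includes genes shared with blood cells, such as PECAM1, that were not lower at 96 h. The sum goes the same way as most endothelial, matrix and stromal differences below, some of which are those of its own members. The part of the endothelial level in them was not tested.

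Of 15299 genes measured, 1095 (7.16%) were called higher at 96 h and 1951 (12.8%) lower, with a median log2 ratio of -0.18 over all of them. These shares are the scale for each count of called list members below. Scaling with edgeR's TMM factors moved every log2 ratio up by 0.18 and gave 1363 higher and 1511 lower, and DESeq2 size factors gave 1363 and 1512. The share of the called genes that was higher thus moved from 35.9% to 47.4% with both. As a scale for 2 single libraries 12 h apart, the same rule called 2.43% higher and 2.42% lower from 24 to 36 h of the VC+ course. It called 4.01% and 1.78% from 36 to 48 h, and 3.39% and 1.47% from 48 to 60 h. The suspended pair is 36 h apart and those pairs 12 h, so the sizes are given side by side only.

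**Figure D1:**
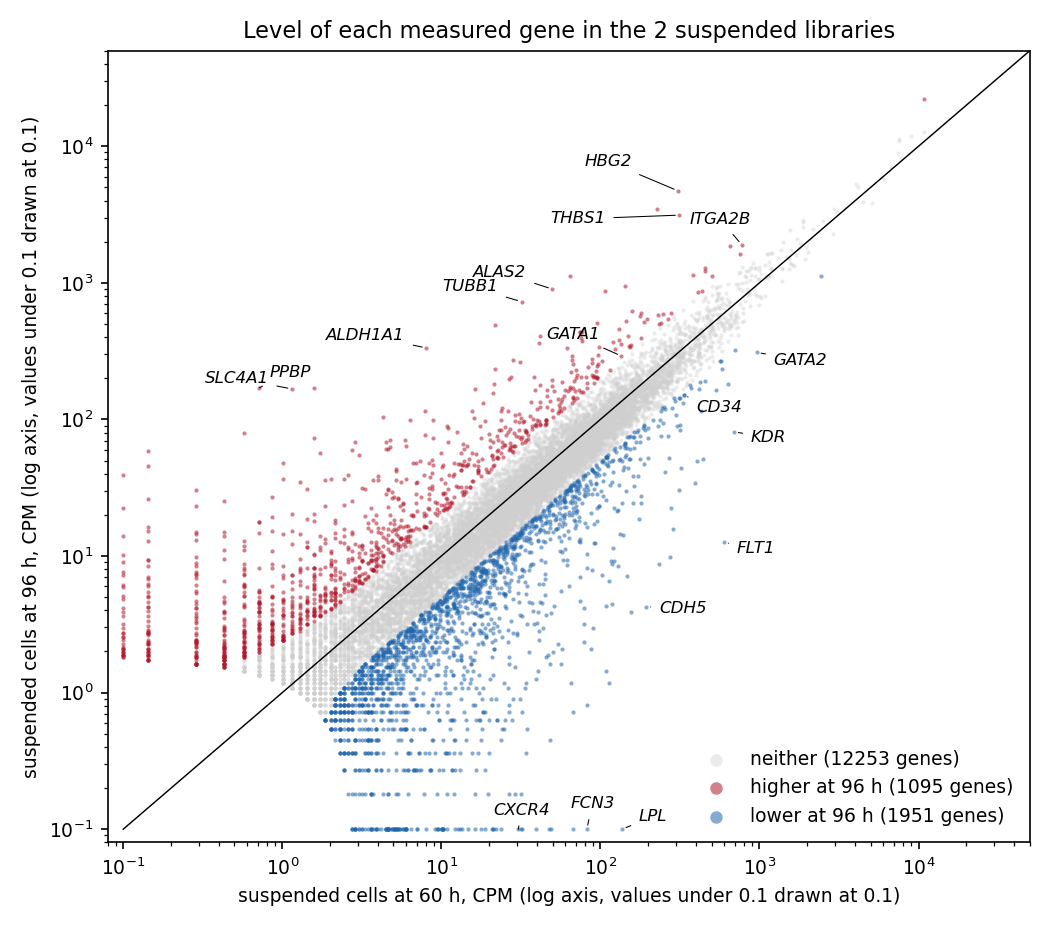
Each point is a measured gene, placed by its CPM in the suspended cells at 60 h (x axis) and at 96 h (y axis), both log axes with values under 0.1 drawn at 0.1; the line marks equal levels. The 1095 red genes were called higher and the 1951 blue genes lower, with HBG2, ALAS2 and PPBP far above the line and FLT1, CDH5 and LPL far below it.

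Globin genes, which encode the oxygen carrier of red cells, had the largest ratio of summed reads among the lists, at 11.5 (95% interval 11.3 to 11.8). HBG2, a fetal gamma globin, stood at 307 CPM at 60 h and 4715 at 96 h, a log2 ratio of 3.94 (95% interval 3.88 to 4.0). HBE1, the embryonic epsilon globin, stood at 225 and 3488 CPM (3.95, 3.88 to 4.03). Both were lower in the adhered cells, at 4.07 and 2.46 CPM. HBG1, the other gamma globin, stood at 64 and 1129 CPM, and its reads cannot be parted with certainty from those of its near copy HBG2. On the alpha side, HBZ, the embryonic zeta globin, stood at 74.7 and 437 CPM (2.55, 2.42 to 2.68). HBA1, an alpha globin with a near-identical copy in HBA2, stood at 28.2 and 270.3 CPM (3.26, 3.05 to 3.48). Of the 10 globin genes measured, 8 were called higher and 0 lower, with a median log2 ratio of 2.73, beside 7.16% higher, 12.8% lower and a median of -0.18 over all genes measured. The 2 that were not called, named after their values were seen, are HBD, at 177 and 268 CPM, and HBB, the adult beta globin, at 3.16 and 5.34 CPM, from 22 and 59 reads. Summed, the 10 genes took 0.0913% of the reads at 60 h (exact 95% interval 0.0891 to 0.0936) and 1.05% at 96 h (1.05 to 1.06).

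Set per length, as TPM over the exonic bases of each gene, gamma globin HBG2 led at both times, at 1091 TPM at 60 h and 14962 at 96 h. HBE1 stood next at 96 h with 10008 TPM, followed by HBG1 with 1876. HBZ stood at 1595 TPM, HBA1 at 893, HBA2 at 683, HBD at 582 and HBB at 11.3. The order at 96 h is thus gamma and epsilon above zeta and alpha, then HBD, with beta globin (HBB) far under HBD and lowest of the 8 given. Counting intervals of neighbours in that order did not overlap, but the reads of each pair of near copies, gamma and alpha, may have been split between them.

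Haem, the iron-holding ring that globin carries, is made in steps shared between mitochondria and cytosol. ALAS2 (ENSG00000158578, chrX:55009055-55031064 on the minus strand of GRCh38), the erythroid form of the enzyme of the first step, stood at 49.9 CPM at 60 h and 899 at 96 h, a log2 ratio of 4.17 (95% interval 4.02 to 4.33). ALAD, the enzyme of the second step, stood at 26.6 and 197 CPM (2.89, 2.67 to 3.11). UROD, which trims the ring's side chains, stood at 156 and 349 (1.16, 1.07 to 1.26), and FECH, which inserts iron, at 57.6 and 140.4 (1.28, 1.13 to 1.45). Of the 15 genes of haem synthesis and iron import measured, 5 were called higher and 0 lower, beside 7.16% and 12.8% of all genes. The list's median was 0.69. The other 10 were called neither way.

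The plasma membrane of a red cell rests on a spectrin net tied to band 3. SLC4A1, which encodes band 3, had 8 reads at 60 h (1.15 CPM) and 1848 at 96 h (167 CPM), a log2 ratio of 7.18 (95% interval 6.2 to 8.40). EPB42, the protein 4.2 that binds band 3, stood at 4.46 and 60.8 CPM (3.77, 3.25 to 4.34). DMTN, dematin, which bundles actin under the membrane, stood at 21.1 and 156 (2.88, 2.64 to 3.14). All of these stood at 5.79 CPM or lower in the adhered cells. Of 18 membrane genes measured, with a median of 1.55, 12 were called higher and 1 lower, beside 7.16% and 12.8% of all genes. The lower one, named after its values were seen, is KEL, the Kell antigen, at 13.5 and 6.33 CPM, and it was not called under TMM or DESeq2 scaling or with 5 CPM added.

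Other genes of late red cells were higher as well. AHSP, the chaperone of free alpha globin, had 1 read at 60 h and 647 at 96 h (58.5 CPM), a log2 ratio of 8.67 (95% interval 6.19 to 13.97), and no read in the adhered cells or at 0 h. CA1, an erythrocyte carbonic anhydrase, stood at 1.58 and 72.5 CPM (5.52, 4.67 to 6.53). HEMGN, a nuclear protein of erythroid cells, stood at 2.87 and 68.3 (4.57, 3.93 to 5.29), and BLVRB, a reductase of biliverdin and flavins, at 74.7 and 438 (2.55, 2.42 to 2.68). PKLR, the pyruvate kinase of red cells and liver, had 0 reads at 60 h and 250 at 96 h (22.6 CPM), 52.4-fold higher with 3 reads set for the earlier library. Of 16 genes of the terminal erythroid list measured, 8 were called higher and 0 lower, beside 7.16% and 12.8% of all genes measured. The list's median was 1.02.

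Some regulators of this lineage were higher as well, and the list had a median of 0.93. KLF1, an activator of globin and membrane genes, stood at 93.7 CPM at 60 h and 225 at 96 h (1.26, 1.14 to 1.39), and GATA1, given above, at a log2 ratio of 1.10 (1.00 to 1.21). EPOR, the erythropoietin receptor, stood at 41.5 and 123 CPM (1.57, 1.38 to 1.76). These are the 3 of 10 measured regulators called higher, and 0 were called lower, beside 7.16% and 12.8% of all genes measured. Under TMM or DESeq2 scaling 7 of the 10 were higher. NFE2, which also serves megakaryocytes, lay just short of the fold, at 216 and 430.2 CPM (1.00, 0.91 to 1.08), named after its values were seen.

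**Figure D2:**
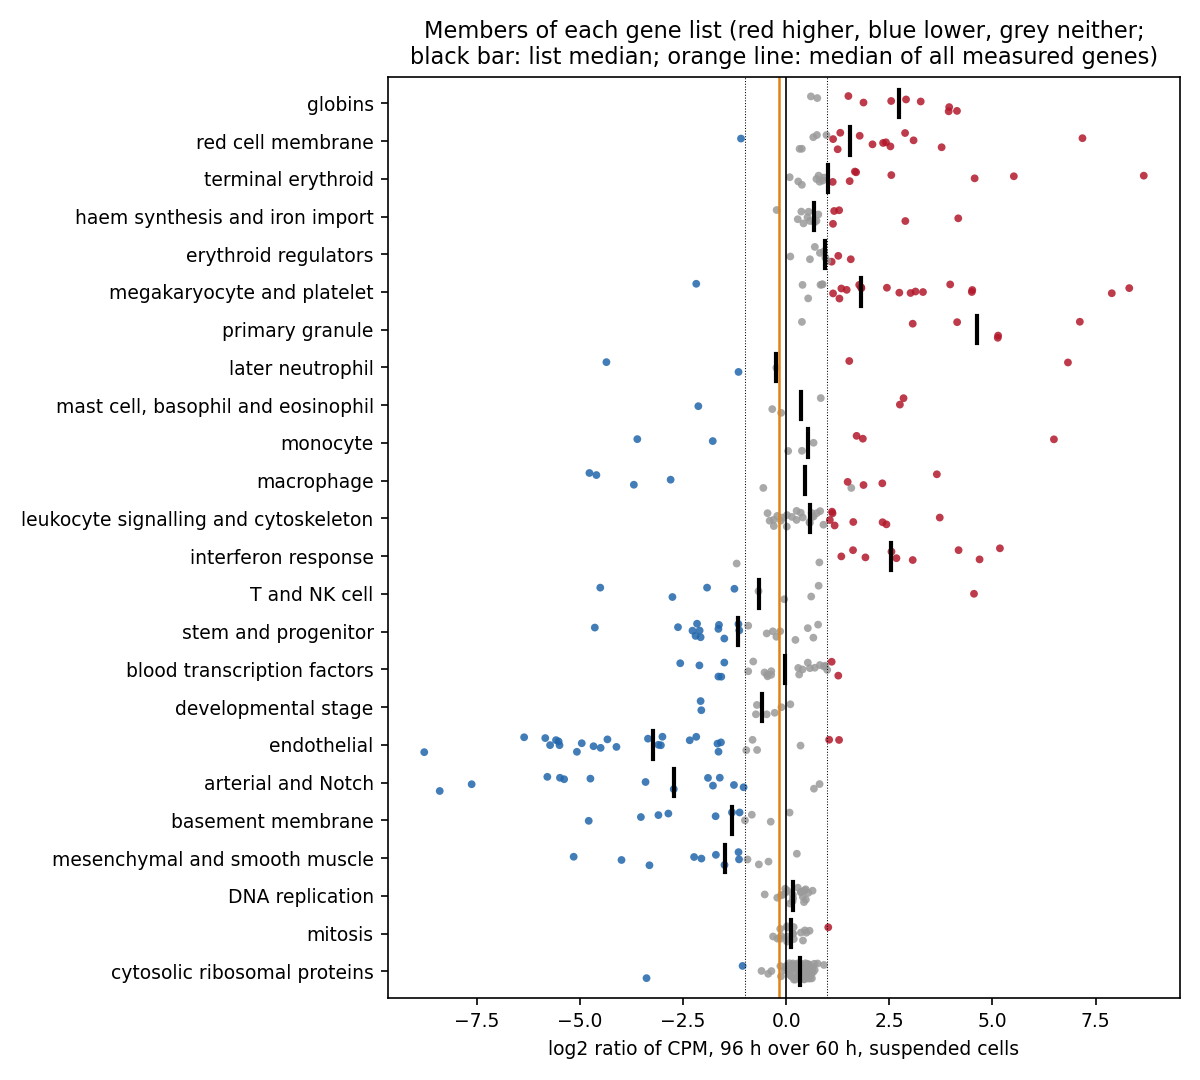
Each point is a measured member of a gene list, placed by its log2 ratio of CPM at 96 h over 60 h (x axis), red if called higher, blue if lower and grey if neither; the black bar is the list's median and the orange line the median of all measured genes, -0.18. Erythroid, megakaryocyte, granule and interferon lists lie to the right, and progenitor, endothelial, Notch, matrix and mesenchymal lists to the left.

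Platelet genes were another group that was higher. PPBP (ENSG00000163736, chr4:73987038-73988197 on the minus strand of GRCh38), the platelet chemokine CXCL7, had 5 reads at 60 h and 1890 at 96 h (0.719 and 171 CPM), a log2 ratio of 7.89 (95% interval 6.67 to 9.52). PF4, platelet factor 4, stood at 21.8 and 495 CPM (4.5, 4.27 to 4.74). TUBB1, the beta tubulin of the platelet marginal band, stood at 31.9 and 728 CPM (4.51, 4.32 to 4.71), and GP9, a subunit of the von Willebrand factor receptor, at 6.32 and 99.6 (3.98, 3.54 to 4.45). In the adhered cells these 4 genes stood between 0 and 2.59 CPM. CLEC1B, the podoplanin receptor of platelets, had 1 read at 60 h and 507 at 96 h (8.32, 5.83 to 13.62), but it also stood at 39.8 CPM at 0 h of the course. ITGA2B, given above, had a log2 ratio of 1.29 (1.25 to 1.34). The median of the 23 megakaryocyte and platelet genes measured was 1.82. Of these, 17 were called higher and 1 lower, beside 7.16% and 12.8% of all genes measured. The lower one is VWF, the von Willebrand factor, which endothelial cells make too, at 32.3 and 7.14 CPM against 209 in the adhered cells, named after its values were seen. Summed, the 26 genes of the list stood at 2600.4 and 10680.4 CPM.

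Some genes with large ratios belonged to no list used here. F13A1, the catalytic chain of clotting factor XIII, had 0 reads at 60 h and 436 at 96 h (39.4 CPM), 91.4-fold higher with 3 reads set for the earlier library. SLC35D3, a transporter needed for dense granules of platelets, had 1 read and 291 reads (7.52, 5.03 to 12.82). DNM3, a dynamin, stood at 1.01 and 48.3 CPM (5.58, 4.53 to 6.91). Of the arachidonic acid enzymes, ALOX12, the platelet 12-lipoxygenase, stood at 18.8 and 96.6 CPM (2.36, 2.10 to 2.63), and TBXAS1, thromboxane synthase, at 13.1 and 47 (1.85, 1.52 to 2.18). ALOX15, the 15-lipoxygenase of other blood cells, was lower, at 15.2 and 1.81 (-3.07, -3.84 to -2.38). Of 7 eicosanoid enzymes measured, 3 were called higher and 2 lower, beside 7.16% and 12.8% of all genes measured.

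The promoter sequences of ALAS2 and PPBP, the leading enzyme of haem synthesis and the leading platelet chemokine, are shown because factors of the GATA family, such as GATA1, bind the letters AGATAA and both genes hold them. Each run gives the 250 bases before the annotated start from RefSeq (GRCh38.p14), 5′ to 3′ on the strand of the gene, which is the minus strand for both, with matches to AGATAA on either strand in capitals. ALAS2 lies at chrX:55030978-55031227 and PPBP at chr4:73988191-73988440.
ALAS2: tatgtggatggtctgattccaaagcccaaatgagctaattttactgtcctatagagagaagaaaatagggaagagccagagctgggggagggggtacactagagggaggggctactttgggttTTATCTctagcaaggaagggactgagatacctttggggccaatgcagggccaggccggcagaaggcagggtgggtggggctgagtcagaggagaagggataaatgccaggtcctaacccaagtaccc
PPBP: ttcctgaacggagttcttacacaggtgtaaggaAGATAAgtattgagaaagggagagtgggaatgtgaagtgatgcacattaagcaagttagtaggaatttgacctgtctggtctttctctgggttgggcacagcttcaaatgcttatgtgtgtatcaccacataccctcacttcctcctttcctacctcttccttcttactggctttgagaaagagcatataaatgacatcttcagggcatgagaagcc
The match starts 127 bases before the start of ALAS2 and 217 bases before that of PPBP. Of 35116 promoters in the table, 3219 (9.17%) held AGATAA in such a window. Of the 95 genes of the erythroid and megakaryocyte lists, 63 had a promoter in the table and 14 of these (22.2%) held it. Among the 32 of the 63 that were called higher, 7 (21.9%) held it, so that called members held it as often as the lists in whole. A match is a description of letters and not a bound site.

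Most measured genes of a list for the primary granules of myeloid cells were higher at 96 h. SRGN, the serglycin core of granule proteoglycans, had 4 reads at 60 h and 884 at 96 h (0.575 and 79.9 CPM), a log2 ratio of 7.12 (95% interval 5.76 to 9.0). It gave 884 of the list's 1900 reads at 96 h, and which cells made them was not tested. MPO, myeloperoxidase, had 3 reads and 167 reads (5.13, 3.56 to 7.42), and none in the adhered cells. CST7, a cystatin of leukocyte granules, stood at 1.15 and 20.3 CPM (4.15, 3.14 to 5.37). Of 17 genes of this list, only 6 had enough reads to be measured. Of these, 5 were called higher and 0 lower, beside 7.16% and 12.8% of all genes measured. The list's median was 4.64. With 5 CPM added 3 were higher and the median was 1.43. The member not called, named after its values were seen, is LYZ, lysozyme, which held most of the reads of the list at 60 h, at 35.8 and 46.7 CPM (0.38, 0.16 to 0.61). ELANE, neutrophil elastase, was listed at 0 at both times, as were 8 of the 17 genes in all, and 6 of these had no read in any of the 8 libraries.

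Genes of later neutrophils gave no common direction. PADI4, a peptidyl arginine deiminase, had 1 read at 60 h and 181 at 96 h (6.83, 4.33 to 12.14). MMP9, a gelatinase of neutrophil granules that the adhered cells held too, stood at 146 and 7.14 CPM (-4.36, -4.71 to -4.03) and at 858 in the adhered cells. Of 5 of 20 members measured, 2 were called higher and 2 lower, beside 7.16% and 12.8% of all genes measured. In the mast cell, basophil and eosinophil list, MS4A3, a membrane protein of granulocyte and monocyte precursors, stood at 4.6 and 31.1 CPM (2.76, 2.23 to 3.33). CPA3, mast cell carboxypeptidase, stood at 3.88 and 3.07 CPM (-0.34, -1.11 to 0.45). That list had 6 of 21 members measured, 2 higher and 1 lower.

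Monocyte and macrophage genes were mixed too. CSF1R, the receptor of macrophage colony-stimulating factor, stood at 15.5 and 56.3 CPM (1.86, 1.56 to 2.17), and FCER1G, the gamma chain of Fc receptors in myeloid cells and platelets, at 57.1 and 186 (1.71, 1.55 to 1.87). CLEC12A, an inhibitory lectin of myeloid cells, had 1 read and 143 reads (6.49, 3.99 to 11.80), but stood at 12.1 CPM at 0 h of the course. CD33, the sialic acid receptor of early myeloid cells, was lower, at 70.4 and 20.5 CPM (-1.78, -2.01 to -1.55). TYROBP, an adaptor of myeloid receptors, stood at 18.3 and 28.9 CPM (0.66, 0.36 to 0.97), and CD14, the endotoxin co-receptor of monocytes, was listed at 0 at both times. Of 8 of 21 monocyte genes measured, 3 were called higher and 2 lower, beside 7.16% and 12.8% of all genes measured.

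Among macrophage genes, SPP1, osteopontin, stood at 17.2 and 0.633 CPM (-4.77, -6.11 to -3.68) and MRC1, the mannose receptor, at 26.3 and 1.09 (-4.60, -5.58 to -3.76). MAF, a macrophage and endothelial transcription factor, stood at 13.2 and 1.9 (-2.80, -3.56 to -2.10). These 3 stood at 74.3, 205 and 75.5 CPM in the adhered cells, above both suspended libraries. LYVE1, a hyaluronan receptor of lymphatic endothelium and some macrophages, stood at 0.862 and 10.9 (3.65, 2.49 to 5.13). The list had 4 higher and 4 lower of 10 measured, beside 7.16% and 12.8% of all genes measured. Of the 4 higher genes, 2 stayed so with 5 CPM added, and CD68 and AIF1 are undercounted. TLR4, the endotoxin receptor, was lower, at 15.4 and 1.63 CPM (-3.24, -4.05 to -2.51), against 52.7 in the adhered cells.

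The transcription factors that set myeloid fate gave calls in both directions. SPI1, the factor PU.1, stood at 144 CPM at 60 h and 105 at 96 h (-0.45, -0.57 to -0.33), within the fold set. CEBPA, which drives granulocytes, had 2 reads and 25 reads (2.98, 0.97 to 6.10), a level of 2.26 CPM, and it was no longer called with 5 CPM added. GFI1, a repressor of endothelial and monocyte genes, stood at 59.9 and 20.2 CPM (-1.57, -1.81 to -1.33). CEBPB stood at 31.6 and 15.3 (-1.05, -1.35 to -0.75) and was not called under TMM or DESeq2 scaling or with 5 CPM added. Of 10 measured, 2 were called higher and 3 lower, beside 7.16% and 12.8% of all genes measured. The list's median was -0.24, close to that of all genes. IRF5, named after its values were seen, was called higher at 1 read and 19 reads (3.58, 0.93 to 8.96). With 5 CPM added 0 of the 10 were higher and 2 lower, so both higher calls rest on few reads.

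Genes of leukocyte signalling and movement were called only in the higher direction. SELPLG, the P-selectin ligand, stood at 24.1 and 122 CPM (2.34, 2.11 to 2.58), and CD53, a tetraspanin of blood cells, at 6.47 and 20 (1.63, 1.16 to 2.12). LCP1, the actin bundler L-plastin, stood at 278 and 606 CPM (1.12, 1.05 to 1.2), against 21.3 in the adhered cells. Of 30 genes measured, 8 were called higher and 0 lower, beside 7.16% and 12.8% of all genes measured. The list's median was 0.57. NCF4, a cytosolic subunit of the phagocyte oxidase, stood at 4.74 and 71.1 CPM (3.91, 3.40 to 4.45), 1 of 3 higher among 5 oxidase genes measured and of 1 with 5 CPM added. BIN2, a membrane-curving protein of leukocytes and platelets, had 11 reads and 1870 reads (6.74, 5.90 to 7.75), and none in the adhered cells.

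Lymphoid markers were low at both times. CD2, an adhesion receptor of T and NK cells, had 0 reads at 60 h and 112 at 96 h (10.1 CPM), 23.5-fold higher with 3 reads set for the earlier library. GATA3, which endothelial cells express as well, stood at 14.4 and 0.633 CPM (-4.51, -5.86 to -3.41), with 71.5 in the adhered cells. Of 27 T and NK cell genes, 9 were measured, 1 higher and 4 lower, beside 7.16% and 12.8% of all genes measured. With 5 CPM added 1 was lower. The list summed to 49.2 and 42.6 CPM, and LCK, CD8A, GZMA and GZMB were listed at 0 at both times. Of 15 B cell genes 4 were measured and 0 called. CD24, which is not limited to B cells, gave most of their reads at 370.4 and 439 CPM, CD79B, a chain of the B cell receptor, stood at 4.89 and 5.88, and MS4A1 was listed at 0. Of 15 dendritic cell genes 2 were measured and both were called lower, 1 of them TCF4, at 139 and 42.3 CPM (-1.71, -1.88 to -1.55), against 136 in the adhered cells.

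Antigen presentation could be read only in part, since 7 of 13 class I genes and 9 of 11 class II genes were listed at 0 at both times, and 5 and 3 of their members are undercounted. NLRC5, the activator of class I genes, stood at 1.87 and 35.9 CPM (4.26, 3.47 to 5.19). B2M, the class I light chain and 1 of the undercounted genes, stood at 42 and 91.1 (1.12, 0.93 to 1.31). CD74, the invariant chain of class II, stood at 5.32 and 11.7 (1.13, 0.60 to 1.70). CD74 was not called with 5 CPM added, which left 2 class I genes higher of 4. Those 4 were of 5 measured, beside 7.16% of all genes called higher.

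Genes of the interferon response formed another group that was higher at 96 h. Interferons bind surface receptors that act through transcription factors that sit on a short element rich in GAAA in front of antiviral genes. MX1, a dynamin-like antiviral GTPase, stood at 1.01 CPM at 60 h and 36.5 at 96 h, a log2 ratio of 5.18 (95% interval 4.13 to 6.51). OAS1 and OAS3, which make the signal for RNase L, stood at 0.431 and 11.1 CPM (4.69, 3.11 to 6.99) and at 5.17 and 43.4 CPM (3.07, 2.58 to 3.60). IFI6, a mitochondrial interferon-induced protein, stood at 3.02 and 54.7 (4.18, 3.55 to 4.88). These 4 stood at 4.68, 1.97, 15.5 and 7.27 CPM in the adhered cells, between the 2 suspended levels. Of 11 of 17 genes measured, 9 were called higher and 0 lower, beside 7.16% and 12.8% of all genes measured. The list's median was 2.55, and 1 of the 17 is undercounted. EPSTI1, an interferon-induced gene outside the list, had 2 reads and 339 reads (6.74, 4.87 to 9.79).

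The promoters of IFI6 and OAS3 are shown for this element, with matches to GAAA, any 2 bases and GAAA on either strand in capitals. Each run is the 250 bases before the start from RefSeq (GRCh38.p14), 5′ to 3′ on the gene's strand, at chr1:27672193-27672442 on the minus strand for IFI6 and chr12:112938224-112938473 on the plus strand for OAS3.
IFI6: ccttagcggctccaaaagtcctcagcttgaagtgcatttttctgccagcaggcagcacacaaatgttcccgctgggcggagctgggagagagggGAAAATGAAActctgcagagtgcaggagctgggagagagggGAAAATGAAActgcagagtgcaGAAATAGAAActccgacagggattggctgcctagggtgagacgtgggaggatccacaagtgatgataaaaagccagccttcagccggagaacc
OAS3: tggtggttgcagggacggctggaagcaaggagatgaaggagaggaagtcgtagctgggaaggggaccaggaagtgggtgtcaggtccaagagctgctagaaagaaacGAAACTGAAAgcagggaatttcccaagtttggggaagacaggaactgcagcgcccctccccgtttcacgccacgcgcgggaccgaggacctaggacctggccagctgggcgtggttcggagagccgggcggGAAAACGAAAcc
IFI6 holds 3 matches, starting 156, 115 and 93 bases before the start, and OAS3 holds 2, at 143 and 12 bases. The window of MX1 in the table held none. Of the 17 genes of the list 11 had a promoter in the table, and 8 of these (72.7%) held a match, against 1061 of all 35116 promoters (3.02%). Of the 6 of the 11 that were called higher, 4 (66.7%) held one, so that called members held it no more often than the list in whole. Here too a match is a description of letters and not a bound site.

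Some chemokines and signalling genes of inflammation were higher. CXCL2 and CXCL3, neutrophil-attracting chemokines, stood at 8.48 and 37.8 CPM (2.16, 1.76 to 2.57) and at 13.9 and 49.7 (1.83, 1.52 to 2.16). NFKBIA, the inhibitor that NF-kB itself induces, stood at 30.8 and 84 (1.45, 1.23 to 1.67). Of 10 of 29 genes measured, 5 were called higher and 1 lower, beside 7.16% and 12.8% of all genes measured. With 5 CPM added 3 of the 10 were higher and 0 lower. Of 17 cytokine receptors measured, 3 were higher, among them EPOR and CSF1R, and 2 lower, among them IL4R at 25.2 and 5.06 CPM (-2.31, -2.77 to -1.87).

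Genes of stem and progenitor cells were lower or did not pass the fold. GATA2 (ENSG00000179348, chr3:128479427-128493185 on the minus strand of GRCh38), the factor whose reporter marked the starting cells, stood at 965 CPM at 60 h and 309 at 96 h, a log2 ratio of -1.64 (95% interval -1.70 to -1.58), and at 172 in the adhered cells, so the 60 h suspension was the highest of the 3. CD34, a sialomucin of progenitors and endothelium, stood at 334 and 149.8 CPM (-1.16, -1.25 to -1.06) and stood at 1113 in the adhered cells; it was no longer called under TMM or DESeq2 scaling. THY1, the antigen CD90, stood at 78.8 and 3.17 (-4.64, -5.17 to -4.14), and CD44, a hyaluronan receptor, at 254 and 41.3 (-2.62, -2.77 to -2.47). CRHBP stood at 25.3 and 5.24 (-2.27, -2.72 to -1.83), and MECOM, the stem cell factor EVI1, at 24.4 and 5.34 (-2.20, -2.65 to -1.76). Of 21 of 28 genes measured, 0 were called higher and 12 lower, with a median of -1.16 (12.8% of all genes measured were lower). TMM and DESeq2 scaling left 10 lower and a median of -0.97, and adding 5 CPM left 11 lower. THY1, CRHBP, MECOM and CD44 also stood at 674, 79.2, 187 and 289 CPM in the adhered cells, above both suspended libraries.

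Some progenitor factors lay within the fold. MYB, needed for definitive progenitors, stood at 231 and 122 CPM (-0.92, -1.02 to -0.81), RUNX1, the master factor of blood emergence, at 502 and 289 (-0.80, -0.87 to -0.73), and KIT, the stem cell factor receptor, at 44.6 and 76.2 (0.77, 0.59 to 0.97). MYB and RUNX1 were above their levels of 48.3 and 111 CPM in the adhered cells at both times. SPN, at a log2 ratio of 0.90 (0.83 to 0.98), lay just short of the fold and was called higher under TMM and DESeq2 scaling. Of 24 blood transcription factors measured, 2 were called higher and 5 lower, beside 7.16% and 12.8% of all genes measured. The list's median was -0.03. TMM and DESeq2 scaling gave 6 higher and a median of 0.15. The lower ones besides GATA2 and GFI1 include ERG, an ETS factor of vessels and stem cells, at 37.7 and 8.77 CPM (-2.10, -2.45 to -1.76), and IKZF2, at 11.8 and 1.99 (-2.57, -3.32 to -1.87).

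Of the genes that mark developmental stage, HMGA2, a chromatin protein of fetal stem cells, stood at 109 and 25.9 CPM (-2.07, -2.27 to -1.87), and HOXB9 at 159 and 38.3 (-2.06, -2.22 to -1.89). These were the 2 of 8 measured that were called, both lower, beside 12.8% lower over all genes measured. HOXA9, HOXA5 and HOXA7, patterning factors of definitive blood, were listed at 0 at both times.

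**Figure D3:**
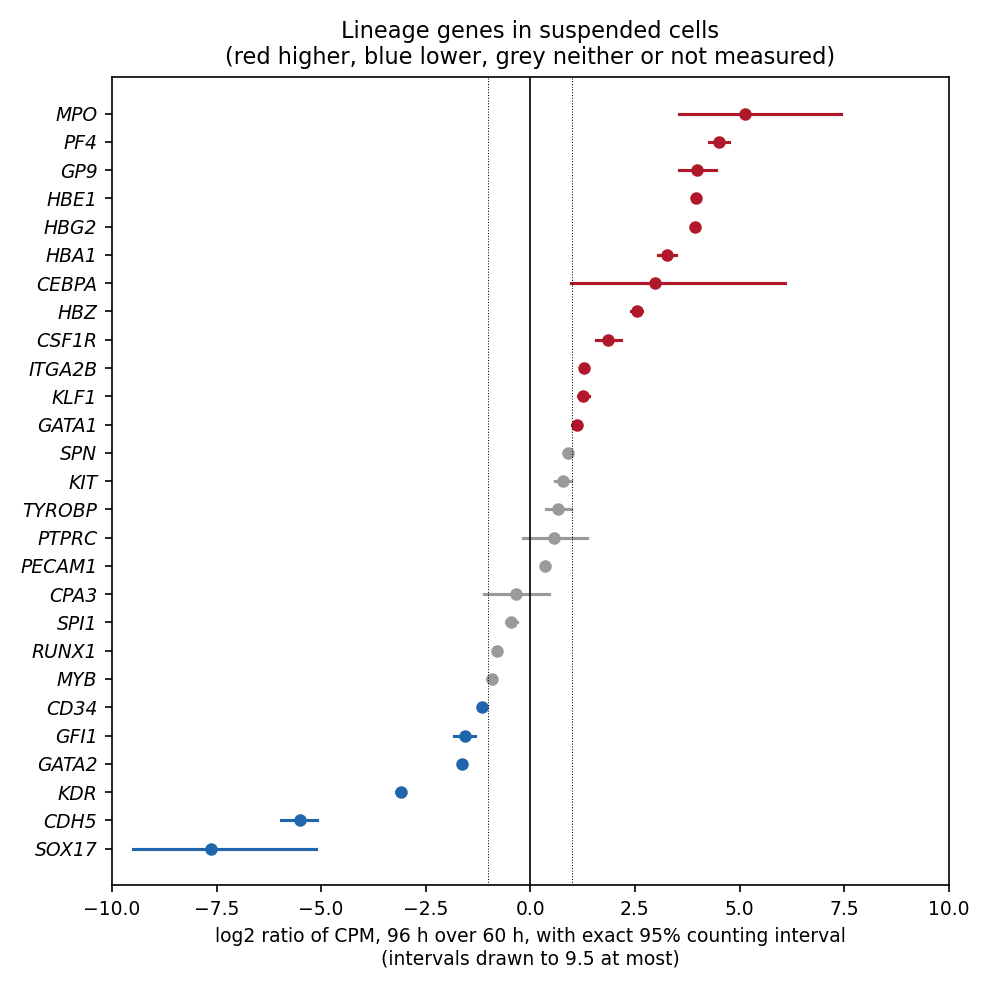
Log2 ratio of CPM at 96 h over 60 h (x axis) for 27 of 30 lineage genes, with exact 95% counting intervals drawn to 9.5 at most; red was called higher, blue lower and grey neither. MPO and PF4 lie at the top, RUNX1, MYB and KIT within the dotted 2-fold lines, and KDR, CDH5 and SOX17 at the bottom; those not drawn include ELANE and CD14, with no reads.

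Endothelial genes were lower as a group. CDH5 (ENSG00000179776, chr16:66366622-66404786 on the plus strand of GRCh38), VE-cadherin of endothelial junctions, stood at 194 CPM at 60 h and 4.25 at 96 h, a log2 ratio of -5.51 (95% interval -5.97 to -5.10), against 1347 in the adhered cells. FLT1 and KDR, receptors of vascular endothelial growth factor, stood at 601 and 12.6 CPM (-5.58, -5.83 to -5.33) and at 694 and 81.1 (-3.10, -3.20 to -2.99), and CLDN5, a tight junction claudin, at 23.9 and 0.452 (-5.72, -7.36 to -4.47). CLEC14A, a lectin of vessels, had 275 reads at 60 h and 1 at 96 h (-8.77, -14.08 to -6.28). ROBO4, a guidance receptor of endothelium, had 154 reads and then 0, 81.6-fold lower with 3 reads set for the later library. FLT1, KDR, CLDN5, CLEC14A and ROBO4 stood at 3880.3, 4699, 213, 393 and 160.3 CPM in the adhered cells, far above both suspended libraries. Of 28 genes, all measured, 22 were called lower and 2 higher, beside 12.8% and 7.16% of all genes measured. The list's median was -3.22. ECSCR, 1 of the lower genes, is undercounted.

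The exceptions hold genes shared with blood cells. PECAM1, the adhesion molecule CD31 that platelets and leukocytes also carry, stood at 439 and 559 CPM (0.35, 0.29 to 0.41). The 2 called higher, named after their values were seen, are ICAM2, at 53.8 and 111 CPM (1.04, 0.87 to 1.21), which platelets carry as well, and EMCN, at 5.46 and 13.3 (1.28, 0.76 to 1.84). Neither was called with 5 CPM added. PECAM1, ICAM2 and EMCN are part of the list's sum of 4033 CPM at 60 h and 1366 at 96 h.

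Arterial and Notch genes, which mark the endothelium that blood stems from, were lower apart from 2 that were not called. SOX17, an arterial factor, had 124 reads at 60 h and 1 at 96 h (-7.62, -12.94 to -5.12), and CXCR4, a chemokine receptor of arterial tip cells and stem cells, had 212 and 1 (-8.40, -13.71 to -5.90). UNC5B, a netrin receptor, stood at 65 and 1.18 CPM (-5.79, -6.71 to -5.0), and HEY1, a Notch target, at 32.3 and 0.723 (-5.48, -6.71 to -4.48). In the adhered cells these 4 stood at 104, 304, 693 and 249 CPM. Of 15 measured, 13 were called lower and 0 higher, beside 12.8% and 7.16% of all genes measured. The list's median was -2.72, and NOTCH4 is undercounted. TMM and DESeq2 scaling left 12 lower, as did adding 5 CPM. Of 6 venous and lymphatic genes measured, 3 were lower, namely FLT4, at 56.3 and 1.63 CPM (-5.11, -5.88 to -4.43), NRP2 (-2.04, -2.31 to -1.78) and EPHB4 (-1.56, -1.75 to -1.39). The 1 higher gene is LYVE1, given above.

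Matrix genes were lower beside the vessel genes. FN1, fibronectin, stood at 272 and 9.86 CPM (-4.79, -5.08 to -4.51), COL4A1 and COL4A2, chains of basement membrane collagen, at 392 and 34.2 (-3.52, -3.68 to -3.36) and at 441 and 51.6 (-3.10, -3.23 to -2.97), and SPARC, a collagen-binding protein, at 321 and 44.3 (-2.85, -3.0 to -2.71). Of 11 basement membrane genes measured 7 were lower and 0 higher. Of 13 mesenchymal and smooth muscle genes 9 were lower and 0 higher. Under TMM or DESeq2 scaling 6 basement membrane and 7 mesenchymal genes were lower, and with 5 CPM added 7 and 6. Over all genes measured 12.8% were lower and 7.16% higher. COL3A1 and COL1A1, fibrillar collagens, stood at 74.7 and 4.7 CPM (-3.99, -4.43 to -3.58) and at 63.2 and 13.5 (-2.23, -2.51 to -1.96). COL5A1 (-3.31, -3.65 to -2.99) and COL6A1 (-2.05, -2.33 to -1.78) were also among them. The matrix list summed to 3304 and 1129 CPM in the suspended cells and 12199 in the adhered cells, and the mesenchymal list to 590.5, 225 and 1284.

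**Figure D4:**
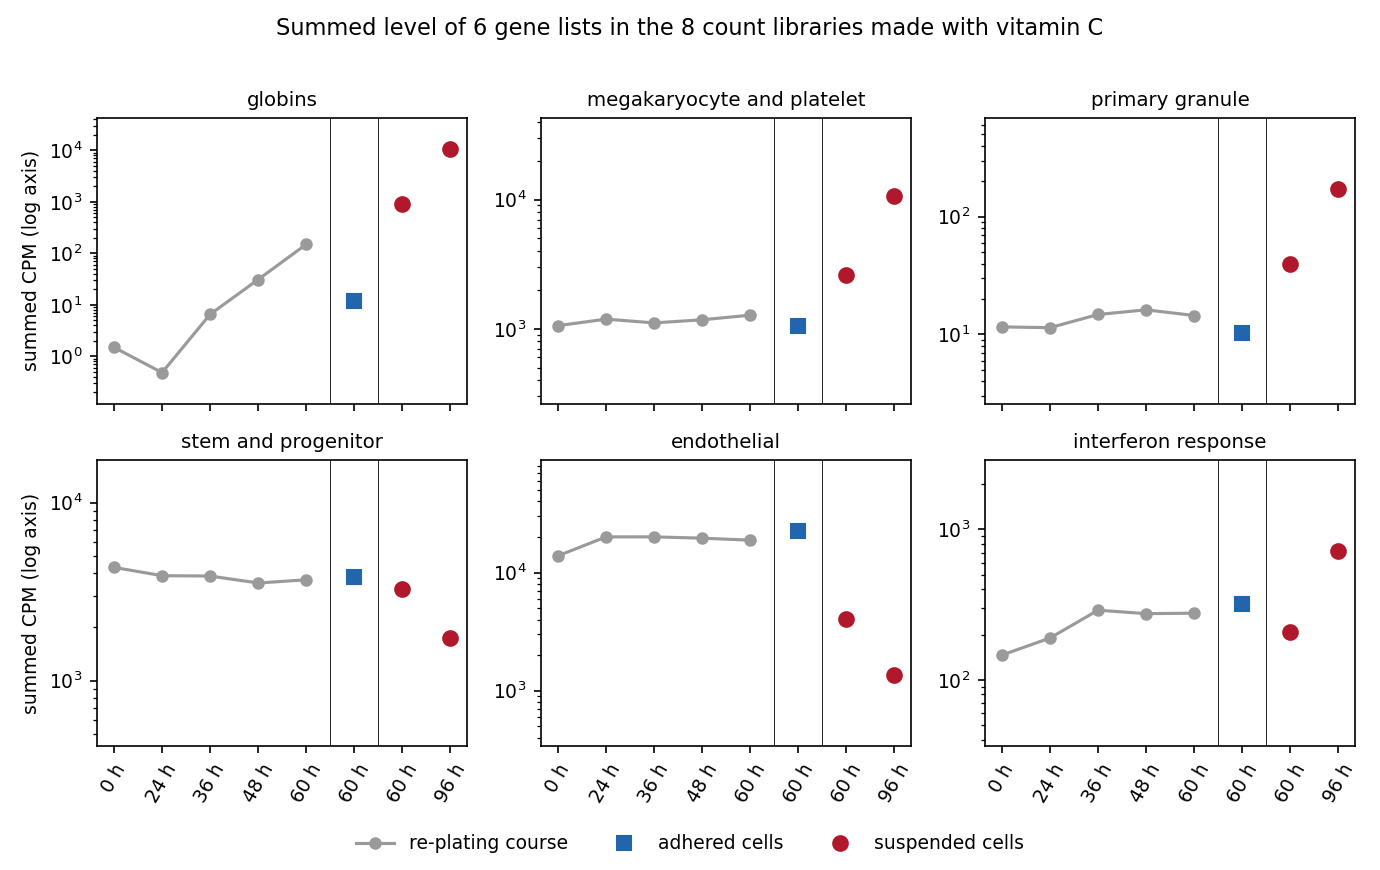
Summed CPM (y axis, log axis) of 6 gene lists in each VC+ count library: the re-plating course from 0 to 60 h (grey, joined), the adhered cells at 60 h (blue square) and the suspended cells at 60 and 96 h (red). Globin genes sum to 913 CPM at 60 h and 10536 at 96 h in suspension against 11.8 in the adhered cells, whereas endothelial genes sum to 4033 and 1366 against 22379.7.

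Most of the smallest ratios belonged to genes that the adhered cells expressed. LPL, lipoprotein lipase, had 953 reads at 60 h and 0 at 96 h, 505-fold lower with 3 reads set for the later library, and stood at 804 CPM in the adhered cells. FCN3, a ficolin of the lectin complement pathway, had 571 reads and 1 read (-9.83, -15.13 to -7.34), with 657 CPM in the adhered cells. ADGRL4, an adhesion receptor of endothelium, had 331 reads and then 0, and FAM198B had 221 and then 0. With 3 reads set for the later library they were 175-fold and 117-fold lower. The remaining genes among the 15 smallest ratios include SELE, the endothelial selectin (-7.85, -13.16 to -5.35), the integrins ITGA1 (-7.45, -10.50 to -5.58) and ITGA3 (-7.33, -10.39 to -5.46), receptors of collagen and laminin, and TGFBR3, betaglycan (-7.20, -10.26 to -5.33). TM4SF18 (-9.08, -14.39 to -6.59), OIT3 (-8.48, -13.79 to -5.98), GIMAP8 (-8.04, -13.36 to -5.55) and LIMCH1 (-7.86, -13.17 to -5.36) complete them, each with 1 read at 96 h. The last 8 stood between 156 and 339 CPM in the adhered cells.

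TCF20 stands apart in that group. It had 471 reads in the 60 h suspended library (67.7 CPM) and 1 at 96 h, but 0.246 CPM in the adhered cells and 0.242 to 1.53 over the course, while the sorted cells held 18.9 to 32.6 TPM. It is undercounted at 0 h by the check above, which was not made for the other libraries, and its ratio is not read as a difference between the times.

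Among the largest ratios, ALDH1A1, a retinaldehyde dehydrogenase, stood at 8.05 and 334 CPM (5.37, 4.99 to 5.78), and DHRS3, a reductase of retinaldehyde, had 2 reads and 257 reads (6.34, 4.47 to 9.39). ALDH1A1 had no read in the adhered cells. TMEM40 had 3 reads at 60 h and 281 at 96 h (5.88, 4.32 to 8.17), with 3.9 CPM at 0 h of the course. None of the 3 belongs to a list used here.

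Markers of other tissues gave calls in both directions, to be set beside 7.16% higher and 12.8% lower over all genes measured. The 11 cardiac genes summed to 31.5 CPM at 60 h and 4.88 at 96 h, with GATA4 at 71 reads and 1 (-6.82, -12.14 to -4.29) and TNNT2 and MYL7 at 0. Of 5 measured 4 were lower and 1 higher, and with 5 CPM added 2 were lower and 0 higher. The 7 hepatic genes summed to 0.431 and 0.723 CPM, with ALB and AFP at 0 and HNF4A and TTR at 8 and 0 reads at 96 h, and the 7 neural genes to 2.59 and 2.53, with SOX1 at 0 and PAX6 and ELAVL4 at 8 and 11 reads at 96 h. Of the epithelial genes, KRT8 and KRT18, simple keratins that endothelium made from stem cells can hold, stood at 149 and 44.3 CPM (-1.75, -1.91 to -1.59) and at 146 and 61.7 (-1.25, -1.39 to -1.11). EPCAM, an adhesion molecule of epithelium that erythroid precursors can carry, stood at 4.46 and 28.5 (2.68, 2.14 to 3.26). The 9 pluripotency genes summed to 739 and 521 CPM, with 1 of 4 measured called higher and 0 lower. LIN28A and DNMT3B, which blood and endothelial cells of early stages can hold, gave most of these reads, at 425 and 256 CPM (-0.73, -0.81 to -0.66) and at 274 and 197 (-0.47, -0.56 to -0.39), named after their values were seen. NANOG was listed at 0 and POU5F1 had 0 and 1 reads, while ZFP42 stood at 4.31 and 10.2 CPM (1.24, 0.65 to 1.88) and was no longer called with 5 CPM added.

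Proliferation genes differed little. MCM4 and MCM7, subunits of the replicative helicase, stood at 325 and 331 CPM (0.03, -0.05 to 0.10) and at 313 and 333 (0.09, 0.01 to 0.17), above 116 and 122 in the adhered cells. Of 21 replication genes 0 were called higher and 0 lower, beside 7.16% and 12.8% of all genes measured. Of 20 mitosis genes 1 was called, UBE2C, a ubiquitin-conjugating enzyme of mitotic exit, at 71.2 and 144 CPM (1.02, 0.87 to 1.17), and not with 5 CPM added. CCND1, cyclin D1, stood at 130.1 and 33.3 CPM (-1.97, -2.15 to -1.79), with 278 in the adhered cells, and CDKN2D, the inhibitor p19, at 25.3 and 64.5 (1.35, 1.11 to 1.60).

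Stress and metabolic lists gave scattered calls, to be set beside 7.16% higher and 12.8% lower over all genes measured. Of 10 genes of amino acid and unfolded protein stress, 4 were lower and 0 higher. PHGDH and PSAT1, enzymes of serine synthesis, stood at 62 and 9.4 CPM (-2.72, -3.04 to -2.41) and at 95.3 and 22.6 (-2.08, -2.29 to -1.86), and DDIT4, a stress-induced inhibitor of mTOR, at 58.2 and 17.8 (-1.71, -1.96 to -1.46). In the p53 list FAS (-2.63, -3.42 to -1.91), PHLDA3 (-1.41, -1.91 to -0.93) and MDM2 (-1.08, -1.22 to -0.95) were lower and BTG2 higher (1.36, 1.14 to 1.59), of 13 measured. Of 16 immediate early genes 4 were higher, with NR4A1 (1.59, 1.08 to 2.14) and ZFP36 (1.18, 0.94 to 1.42) among them, and 5 lower, with JUN (-1.65, -2.03 to -1.28) and KLF6 (-1.04, -1.25 to -0.84) among them. Glycolysis and hypoxia genes had 3 lower of 22, among them HK2 (-1.03, -1.20 to -0.87) and P4HA1 (-1.04, -1.22 to -0.86). Of these, MDM2, KLF6, HK2 and P4HA1 were not called under TMM or DESeq2 scaling, HK2 not without mitochondrial genes in the total, and PHLDA3, KLF6, HK2 and P4HA1 not with 5 CPM added. That addition left 2 immediate early genes higher, 1 lower and 0 glycolysis and hypoxia genes lower.

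Some housekeeping lists held few calls, to be set beside 7.16% higher and 12.8% lower over all genes measured. Of 13 cholesterol genes and 8 heat shock genes measured 0 were called. HMGCS1 stood at 436 and 458 CPM, HSP90AA1 at 1764 and 1796 and HSPA8 at 2157 and 2472. Of the 10 heat shock genes listed, 2 are undercounted. INSIG1, which holds back sterol synthesis, stood at 332 and 633 (0.93, 0.86 to 1.00) and was called higher under TMM and DESeq2 scaling. Of 24 lysosomal genes, CTSZ and CTSA, both proteases, were the 2 called higher, at 66.3 and 293 CPM (2.14, 2.0 to 2.29) and at 67 and 146 (1.13, 0.98 to 1.28), and 2 were lower, 1 of them LGMN (-1.42, -1.82 to -1.02). TMM and DESeq2 scaling gave 4 higher. CYBRD1, a ferric reductase, was 1 of 2 iron genes called higher of 9 (1.24, 0.99 to 1.5), with 4 under TMM and DESeq2 scaling. Mitochondrially encoded genes took 7.41% of the reads at 60 h and 9.62% at 96 h, and MT-CO1, a subunit of cytochrome oxidase, was the 1 of 15 that was called (1.02, 1.00 to 1.03). Of 83 cytosolic ribosomal protein genes measured 2 were called, both lower, among them RPS26 at 88 and 42.3 CPM. RPS26 was not called under TMM or DESeq2 scaling or with 5 CPM added. The list in whole went the other way, with a median of 0.34, and 0.53 under TMM scaling. It took 4.44% of the reads at 60 h and 5.88% at 96 h.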

How the data were processed

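Total RNA was extracted in Trizol and sequenced from TruSeq RNA libraries, per the labels' protocols. The authors deposited 1 table per library. The 8 VC+ tables used hold raw read counts for 58302 gene identifiers, as the deposited whole numbers show. The 4 deposited tables of sorted cells were read as TPM from their sums and served only to find undercounted genes. The submitters' processing notes name, without roles, DESeq 1.18.1, HTSeq 0.6.0, HISAT2 2.0.4, SAMtools 1.3.1, GRCh38 and hg38. The annotation and strand setting used for counting are not given in the sources used here, which leaves overlapping and antisense genes uncertain. Genes were named from GENCODE release 29 (GRCh38) and the gene table.

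Each library was scaled to its total. The ratio of 2 Poisson counts was given its exact conditional (Clopper-Pearson) 95% interval. A count of 0 was set to 3 for the ratio, and a fold given that way is not a limit of the interval. No ratio was given where both counts were at or under 3. The calling script was tested on simulated Poisson counts, the model its interval assumes, which checks the code and not the spread between libraries. The named genes are 30 lineage genes, the 15 largest and 15 smallest ratios of called protein-coding genes whose higher library held at least 20 CPM (Y-linked genes and clone names passed over), and up to 4 called members of each of 50 lists with at least 10 CPM, or the 2 with most reads where none was called. Members singled out as exceptions, near copies or undercounted were named after their values were seen. The comparison, genes and lists were chosen with earlier results of these data known. TMM came from edgeR 4.0.16 and size factors from DESeq2 1.42.0 (R 4.3.3). The alternatives tried are other scalings, read filters, added CPM and a stricter call. Leaving out genes undercounted against the sorted cells was added after seeing the data. Some named genes are not reported here.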

Additional observations from a re-analysis of the deposited data

How the results depend on the processing

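The counts of called genes held within 1.5 times of 1095 higher and 1951 lower under each other scaling (1119 to 1363 higher, 1511 to 1898 lower), with 1 read as the filter, with 0.5 CPM added and without the undercounted genes (1085 and 1916). A filter of 100 reads left 602 higher and 1003 lower of 11474 measured, adding 5 CPM left 457 and 767, and asking the whole interval to lie past 2-fold left 588 and 1039. These are stricter by construction. Of 149 named genes that were called, 142 stayed called under TMM and under DESeq2 scaling, 148 without mitochondrial genes in the total, 149 without globin genes and with 0.5 CPM added, and 138 with 5 CPM added. No paired analysis was possible because each group has 1 library and no test was made, and for the same reason no library could be left out. Genes under 20 reads in all were too shallow for a ratio.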
